A study of Mus musculus with 32 samples.

Results

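Mouse gene catalogues hold many loci without a descriptive symbol. Names of the form Gm followed by digits were assigned to gene predictions, and names ending in Rik to full-length cDNAs from the RIKEN collection; in the deposited liver tables of a study of sodium oxybate, 161 of the 533 distinct genes listed carried such a name. Members were taken by name alone, as every row whose gene name is Gm plus digits or ends in Rik. The table of experiment P held 57 of them among 242 rows (45 Gm and 12 Rik) and the table of experiment T held 107 among 306 rows (86 Gm and 21 Rik). Only 3 models, Gm15491, Gm47528 and 4930458D05Rik, were in both tables. Rows with an ordinary symbol, 183 in P and 195 in T, are called named genes below and serve as the comparison.

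All libraries were made from liver RNA of C57BL/6J mice. Sodium oxybate (SXB) is the sodium salt of gamma-hydroxybutyrate, a narcolepsy drug, and the study asked how it acts on body weight in mice that are becoming obese and in mice that already are. Experiment P had 8 libraries labelled P_Vehicle and 8 labelled P_SXB, and experiment T had 8 labelled T_Vehicle and 8 labelled T_SXB; which experiment is which form of obesity, the dose, the duration, and the age of the mice were not found in the labels. Nothing in the labels says that each library is a separate mouse; the p-values then measure only how these libraries vary, which may be partly technical. The values are the authors' normalised expression signal per gene and library, rounded to 0.01, and sequencing depth is unknown.

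The authors had already chosen the rows of each table on these same libraries, keeping those with an absolute log2 fold change over 1 whose unadjusted p was below 0.05. Counts of models that were higher, lower or past a threshold therefore describe preselected rows, and the direction of a row is partly set by that choice. Library 16 of T is labelled vehicle but its column stands among the SXB columns, and library 18 is labelled SXB but stands among the vehicle columns. Groups follow the labels, and levels, detection and differences of T are also given without these 2 libraries, with 7 libraries in each group. No hepatocyte marker of the 8 checked was among the listed rows of either table, so the tissue label could not be checked on them. In P, 6 of 11 macrophage markers were listed and all 6 passed the test as lower with SXB; their summed value was 56.4 to 134 in the vehicle libraries and 36.3 to 56.1 in the SXB libraries. Of the other marker lists, the immunoglobulin gene Igkc passed as lower in P, at 15.03 to 93.53 with vehicle and 6.15 to 20.44 with SXB, and Upk3b, a mesothelial marker, passed as higher, from a mean of 0.0413 to 0.136. With the groups as labelled no marker passed in T. Without libraries 16 and 18, Cfd, an adipocyte gene, passed as lower (1.22 to 63.66 with vehicle, 0 to 2.31 with SXB), as did the B-cell gene Cd79b (0.32 to 1.08 against 0.21 to 0.59), and the pancreatic elastase gene Cela2a passed as higher (0.14 to 0.64 against 0.46 to 1.55). In bulk liver RNA, fewer cells of a type and less RNA per cell cannot be told apart, and the part of these markers in the results below was not tested.

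Such loci fall into a few kinds. A lincRNA is a long non-coding RNA from a locus between coding genes, and an antisense RNA is transcribed from the strand opposite another gene, sometimes across its exons. A processed pseudogene is a copy of a messenger RNA that was reverse-transcribed and inserted into the genome, usually without introns; an unprocessed pseudogene is a decayed duplicate that keeps them. TEC is the class that GENCODE gives to loci with signs of an unspliced transcript that still await an experimental test. Liver transcribes many non-coding loci at low level, and most have no known function.

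By the GENCODE M21 annotation on GRCm38, to which every model matched by gene identifier, the 57 models of P were 18 lincRNAs, 10 TEC loci, 8 antisense RNAs, 8 pseudogenes, 8 protein-coding models and 5 other non-coding transcripts. The 107 models of T were 31 lincRNAs, 21 antisense RNAs, 21 pseudogenes, 15 TEC loci, 11 protein-coding models and 8 other non-coding transcripts. Of the named genes, 166 of 183 in P and 184 of 195 in T were annotated as protein coding. The models were often built from a single exon, 23 of 57 (40.4%) in P and 39 of 107 (36.5%) in T, against 4.92% and 8.72% of named genes. Their longest transcript had a median length of 1676 bases in P and 1608 in T, against 2482 and 2412 for named genes. Lying on top of another annotated gene was also more frequent among them, with 34 of 57 (59.6%) in P and 67 of 107 (62.6%) in T, against 41.5% and 45.6% of named genes.

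Most of the models were near the lower end of the scale. The median of their mean value over 16 libraries was 0.104 in P, against 0.291 for named genes, and 0.202 in T, against 0.409. A mean below 1 was found for 53 of 57 models (93.0%) in P and 84 of 107 (78.5%) in T, against 76.5% and 68.2% of named genes. Within P the highest class median was that of the pseudogenes at 0.235, and the lowest that of the TEC loci at 0.0753. Within T the lincRNAs were highest at 0.479, and TEC loci were again lowest at 0.0606; without libraries 16 and 18 these medians were 0.506 and 0.0671, and that of all models 0.209. Among rows of a table that were at 0 in at least 1 library, the smallest value above 0 fell with transcript length, with a median of 0.14 in P for transcripts under 1000 bases and 0.01 for those of 3000 bases and over, and 0.13 and 0.01 in T; a low value in a short model can therefore stand for very few reads.

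**Figure D1:**
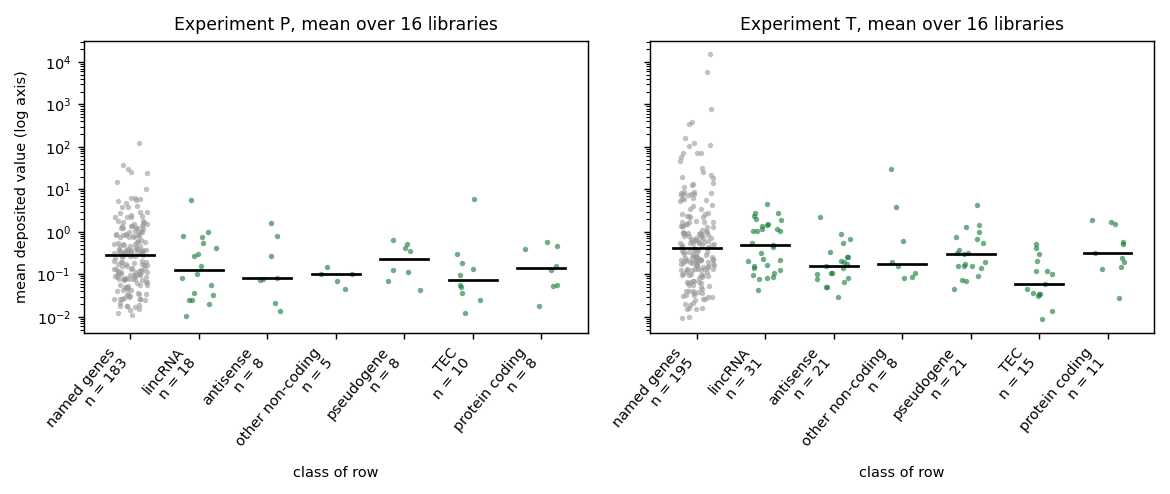
Mean deposited value over the 16 libraries of each experiment, on a log axis, for named genes (grey) and for Gm and Rik models by annotated class (green); each point is 1 row, and black bars are medians. TEC loci have the lowest median among the classes in both experiments (0.0753 in P, 0.0606 in T), and the named genes of T reach a mean of 15390.

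Detection was patchy. A value above 0 in all 16 libraries was seen for 12 of 57 models (21.1%) in P, against 52.5% of named genes, and for 39 of 107 (36.4%) in T, against 57.4%. Over all models and libraries, 74.0% of the values of P and 80.9% of those of T were above 0, against 87.6% and 87.8% in named genes. With a stricter limit of 0.1, only 41.6% of the library values of P counted as detected, against 62.2% in named genes, and 59.6% in T, against 67.7%. In P between 43 and 50 of the 57 models were above 0 in a vehicle library, with a median of 45, and between 34 and 44 in an SXB library, with a median of 39. In T the numbers were 80 to 90 of 107 with vehicle, median 87, and 74 to 92 with SXB, median 89.5. Without libraries 16 and 18 the ranges of T were the same, with medians of 86 and 89, and 42 of 107 models (39.3%) were above 0 in every library. The ranges of vehicle and SXB libraries overlapped in both experiments. By class, pseudogenes had the lowest share of values above 0, with 66.4% in P and 69.9% in T, against 81.9% and 76.25% for TEC loci. They also had the shortest transcripts, with a median of 698.5 bases in P and 804 in T, against 2024 and 2200 for TEC loci.

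**Figure D2:**
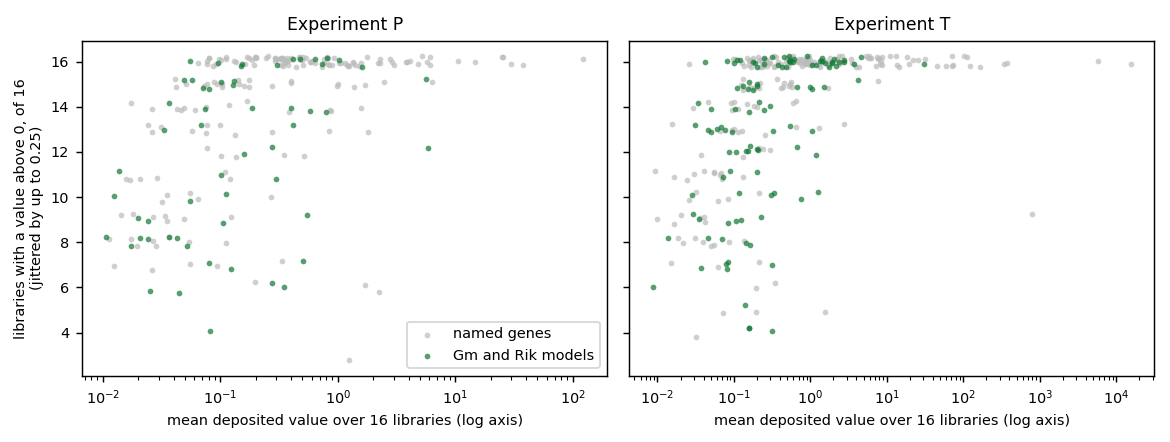
Number of libraries with a value above 0, of 16, against the mean deposited value on a log axis, for named genes (grey) and Gm and Rik models (green) of each experiment; each point is 1 row. Rows with a value above 0 in every library make up 21.1% of the models of P and 36.4% of those of T.

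In experiment P the models were lower with SXB more often than higher, but less one-sidedly than the named genes of that table. Of the 57, 39 were lower and 18 higher (31.6% higher), against 160 lower and 23 higher (12.6% higher) among named genes. The median difference of log2(value + 1), SXB minus vehicle, was -0.07 for the models and -0.20 for named genes. All 4 models with a mean of at least 1 were lower. Of the 18 lincRNAs 16 were lower and of the 8 antisense RNAs 6 were lower, while 5 of 8 pseudogenes were higher and the TEC loci were split 5 to 5. The sum over the 57 models was 21.3 to 46.3 in the vehicle libraries, median 35.3, and 7.42 to 22.04 in the SXB libraries, median 14.9, with an overlap between the lowest vehicle and the highest SXB library. Gm43558 and Gm37027 together made up 49.4% of the mean sum with vehicle and 40.7% with SXB. The other 55 models summed to 9.62 to 30.36 with vehicle, median 16.6, and to 6.26 to 11.3 with SXB, median 8.94, while the median model of a library was at 0.05 to 0.1 with vehicle and 0.03 to 0.07 with SXB.

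By limma with Benjamini-Hochberg adjustment over all 242 rows of P at 0.05, 18 of the 57 models passed, 11 as lower and 7 as higher, on a background of 94 of 242 rows, or 38.8%. Of all rows, 34.7% passed as lower and 4.13% as higher; the latter are 10 rows, of which 7 are Gm or Rik models and 3 are named genes. The exact permutation test over the libraries called 22 models, among them each of these 18, on a background of 46.7% of rows by that test. No model had groups that did not overlap, on a background of 2.89% of rows. The count was 9 without SXB library 19, 9 without vehicle library 35, and it was 6 without vehicle libraries 33, 34 and 35, of which 4 were among the 18. The background fell as well, to 28.5%, 28.1% and 22.3% of rows.

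Of the 11 falls in P, 7 were lincRNAs, which were also the largest class of models in P. These were 7 of 18 lincRNAs, a share near the 34.7% of all rows of P that passed as lower. Gm37027, a lincRNA of 2 exons and 256 bases on chromosome 1 (GRCm38, 195017892 to 195018242, minus strand), lies opposite an intron of another Rik model, A330023F24Rik. Its vehicle libraries ranged from 3.44 to 12.97 with a median of 7.86, and its SXB libraries from 0 to 6.68 with a median of 2.6. The 3 highest vehicle libraries were 33, 34 and 35, and the ranges overlapped. The mean fell 2.53-fold from 8.05 ± 3.65 (SD, n = 8) to 3.19 ± 2.55 (n = 8), a log2(value + 1) difference of -1.29 (SE 0.41, limma adjusted p = 0.0271). This scale understates the change of low genes.

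Gm6712, a lincRNA of 4 exons on chromosome 17, was one of 2 models whose call held under every alternative tried for it. Its vehicle libraries ranged from 0.24 to 0.99 (median 0.635) and its SXB libraries from 0 to 0.4 (median 0.195), so that only the lowest vehicle library reached into the SXB range. The mean fell 4.21-fold, from 0.668 ± 0.259 to 0.159 ± 0.147 (SD, n = 8 each), with a log2 difference of -0.52 (SE 0.10, limma adjusted p = 0.00223). Its transcript matched that of Zfp97, a zinc-finger gene, at 95.4% identity over 501 bases, which is 95.2% of its length, so that reads of both loci may have been split by the authors' counting.

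Gm13203, a 2-exon lincRNA on chromosome 4, was 0.46 to 1.55 with vehicle (median 1.27) and 0.33 to 1.09 with SXB (median 0.51), with mean values of 1.08 ± 0.414 and 0.551 ± 0.253 (SD, n = 8) and a log2 difference of -0.41 (limma adjusted p = 0.0251). Gm11707 was above 0 in each vehicle library, from 0.18 to 0.72, and above 0 in 3 of 8 SXB libraries, where it reached 0.61 (log2 difference -0.35, limma adjusted p = 0.0272). Gm38025 was listed at 0 in all 8 SXB libraries and was above 0 in 6 of 8 vehicle libraries, with a highest vehicle value of 0.12 (log2 difference -0.07, limma adjusted p = 0.0303). These are very low levels, and the transcript of Gm38025 had similar sequence, at 95% identity or more over at least 150 bases, in 61 other annotated genes. Gm41611 and Gm9530, the remaining lincRNAs, had vehicle means of 0.0813 and 0.055 and differences of -0.06 and -0.05; Gm9530 was named after its values were seen.

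The largest fall in P by difference was that of a TEC locus. Gm43558 is a single exon of 210 bases on chromosome 3, whose sequence is shown because it is not unique. By blastn it had a match of at least 95% identity over at least 150 bases in 15 other annotated genes, and on the reverse strand it matched a transcript of Adarb2, a gene of the RNA-editing deaminase family, at 99.0% identity over its whole length. The capitals mark AATAAA, the canonical signal for cleavage and polyadenylation, near its 3′ end.
Gm43558, GRCm38 chr3:134357292-134357501, plus strand: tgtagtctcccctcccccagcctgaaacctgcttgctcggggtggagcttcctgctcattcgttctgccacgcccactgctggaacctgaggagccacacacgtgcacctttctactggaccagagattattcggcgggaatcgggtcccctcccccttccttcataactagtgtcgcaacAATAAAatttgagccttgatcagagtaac
With vehicle the 8 libraries lay between 4.37 and 19.42, with a median of 6.32, and with SXB between 0 and 10.24, with a median of 0.075. Only 4 of 8 SXB libraries were above 0, and of these libraries 19 and 23 lay inside the vehicle range. The mean fell 2.95-fold, from 8.72 ± 5.09 to 2.95 ± 4.61 (SD, n = 8 each), with a log2 difference of -1.99 (SE 0.59, limma adjusted p = 0.0206). Because of the matching copies, reads assigned to Gm43558 may come from other loci. The other TEC locus that fell, Gm45104, had a vehicle mean of 0.0788 and an SXB mean of 0.0313 (log2 difference -0.06, limma adjusted p = 0.0215), and Gm12404, a processed transcript lying opposite exons of Fam219a, fell from 0.1 to 0.0375 (-0.08, limma adjusted p = 0.0427).

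Pseudogene copies moved both ways in P, and their sequence bears on what the values can mean. Gm7666 is a single-exon copy of Phb, which codes for prohibitin of the inner mitochondrial membrane, and it overlaps an exon of Fyb on the same strand; Fyb is the gene of an adaptor protein of T cells and myeloid cells. Over its 819 bases it differed from the Phb transcript at 1 base. A stretch of 100 bases with that difference in capitals is given for both, the Gm7666 stretch being GRCm38 chr15:6654113-6654212 on the plus strand and the Phb stretch bases 304 to 403 of a coding transcript of the gene on chromosome 11.
Gm7666: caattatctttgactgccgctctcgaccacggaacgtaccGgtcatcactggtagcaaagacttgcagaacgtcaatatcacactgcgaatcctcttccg
Phb: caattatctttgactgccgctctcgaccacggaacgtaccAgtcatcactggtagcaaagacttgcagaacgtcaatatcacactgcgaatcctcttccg
Gm7666 was above 0 in 6 of 8 vehicle libraries, with a median of 0.815 and a highest value of 2.27, and in 1 of 8 SXB libraries, at 0.32. The mean was 0.969 ± 0.992 (SD, n = 8) against 0.04 ± 0.113 (n = 8), a log2 difference of -0.75 (SE 0.27, limma adjusted p = 0.0385). Fyb itself had means of 8.2 and 3.91 and a log2 difference of -0.90 (SE 0.53, limma adjusted p = 0.139), which did not pass. Whether reads of Gm7666 come from the copy, from Phb or from Fyb was not tested.

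Both pseudogenes that rose in P are copies of ribosomal protein genes. Gm12366, in an intron of C9orf72, is a copy of Rps2, which codes for a protein of the small ribosomal subunit, with 98.0% identity over 881 aligned positions, and 22 other annotated genes held similar sequence. Gm45344, in an intron of Stard10, is an older copy of Rpl31, which codes for a protein of the large subunit, with 79.0% identity. The first 100 bases of Gm12366 and the matching coding bases of Rps2 differ at 6 positions, and a stretch of Gm45344 and Rpl31 of the same length differs at 17, all in capitals.
Gm12366, GRCm38 chr4:35202876-35202975, minus strand: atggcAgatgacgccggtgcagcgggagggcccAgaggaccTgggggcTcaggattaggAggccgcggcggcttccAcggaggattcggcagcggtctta
Rps2, bases 167 to 266 of its transcript: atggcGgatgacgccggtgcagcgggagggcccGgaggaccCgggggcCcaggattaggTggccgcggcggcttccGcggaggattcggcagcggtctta
Gm45344, GRCm38 chr7:101338225-101338324, plus strand: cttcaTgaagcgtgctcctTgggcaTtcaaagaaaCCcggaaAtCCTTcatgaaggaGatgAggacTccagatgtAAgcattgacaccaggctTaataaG
Rpl31, bases 204 to 303 of its transcript: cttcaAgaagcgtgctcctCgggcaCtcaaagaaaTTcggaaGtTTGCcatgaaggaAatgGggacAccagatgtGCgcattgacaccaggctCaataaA
Gm12366 was above 0 in 2 of 8 vehicle libraries, at most 0.12, and in all 8 SXB libraries, from 0.07 to 0.38 with a median of 0.165. The mean rose 6.74-fold, from 0.0288 ± 0.0533 to 0.194 ± 0.125 (SD, n = 8 each), with a log2 difference of 0.21 (SE 0.06, limma adjusted p = 0.0149). Gm45344 ran from 0.08 to 0.47 with vehicle (median 0.19) and from 0.19 to 1.42 with SXB (median 0.555), a 3.11-fold rise of the mean from 0.201 ± 0.116 to 0.626 ± 0.401 (a difference of 0.41 on the log2 scale, SE 0.12, limma adjusted p = 0.0215). Neither Rps2 nor Rpl31 is a listed row, so their own values were not analysed here. Gm9762, named after its values were seen, matched Ube2d2a without a difference over its 444 bases. It was above 0 in SXB libraries 19, 23, 24 and 29, up to 2.2, and reached 0.36 with vehicle (log2 difference 0.48, limma adjusted p = 0.0961), and did not pass.

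The other 5 rises in P were small in absolute level. 5430430B14Rik, a TEC locus near Eif4ebp1, an inhibitor of cap-dependent translation, was 0.03 to 0.12 with vehicle (median 0.045) and 0.07 to 0.18 with SXB (median 0.13), and its mean rose 2.33-fold from 0.0575 ± 0.0341 to 0.134 ± 0.0311 (SD, n = 8 each; log2 difference 0.10, SE 0.02, limma adjusted p = 0.00622). It was the other model whose call held under every alternative tried for it. The TEC loci Gm47218, in an intron of Max, and Gm48372, in an intron of Fgd6, rose from 0.0813 to 0.18 and from 0.0275 to 0.0713 (limma adjusted p = 0.0171 and 0.0471). 6030442K20Rik, a transcript opposite exons of Dstyk, rose from 0.0925 to 0.207 (limma adjusted p = 0.0271). 9330161L09Rik, a single-exon protein-coding model beside Ddx24, was above 0 in 2 of 8 vehicle libraries and all 8 SXB libraries and rose from 0.0175 to 0.0925 (limma adjusted p = 0.0349).

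**Figure D3:**
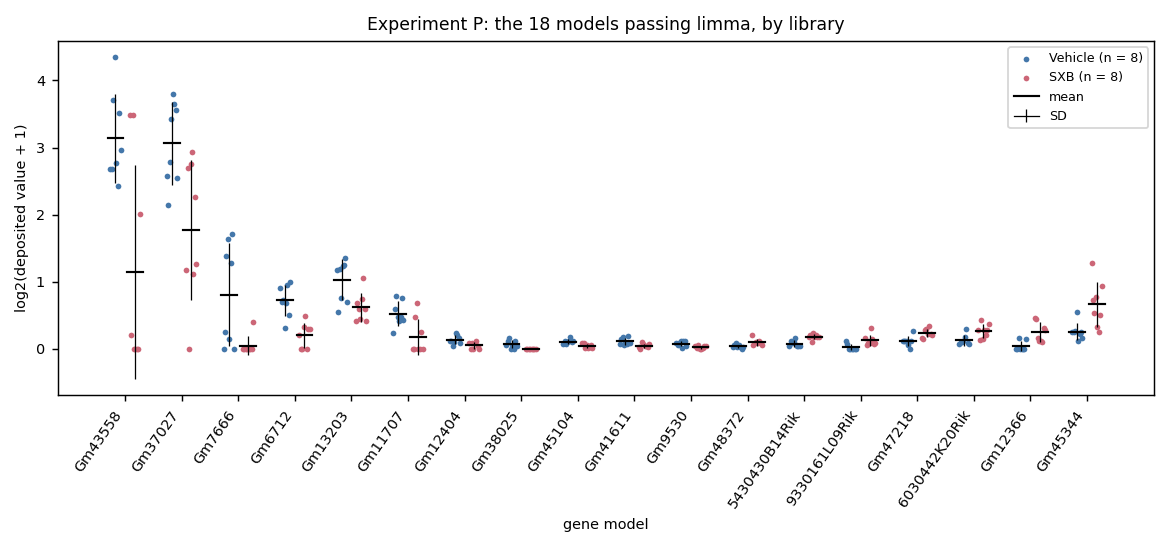
log2(deposited value + 1) of the 18 models of experiment P that passed limma, by library, with vehicle in blue and SXB in red (8 libraries each); bars are means and error bars SD. Gm43558 and Gm37027 stand highest, with mean deposited values of 8.72 and 8.05 with vehicle, and the ranges of the groups overlap for each model.

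Leaving out 1 library at a time ended calls more often than it changed sizes. All 18 models kept their sign and an unadjusted p under 0.05 by limma with each of the 16 libraries left out, and their differences stayed between 72.3% and 121% of those in all libraries. Gm37027, Gm11707 and Gm38025 did not pass without SXB library 19 or without vehicle library 35, with adjusted p up to 0.0508, 0.0524 and 0.0573. Over all libraries left out in turn, the difference was -1.46 to -1.04 for Gm37027, -0.42 to -0.31 for Gm11707 and -0.0792 to -0.0559 for Gm38025. Gm7666 lost its call with 11 of the 16 libraries left out in turn, Gm41611 with 10, Gm12404 with 9, Gm9530 with 12, Gm48372 with 13 and 9330161L09Rik with 6. Without vehicle libraries 33, 34 and 35, 14 of the 18 did not pass, and Gm6712, Gm38025, 5430430B14Rik and 6030442K20Rik did.

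Among models of P that did not pass limma, 2900009J06Rik lies opposite exons of Acmsd, an enzyme of tryptophan catabolism. It had a vehicle mean of 2.14 ± 1.44 and an SXB mean of 1.07 ± 0.482 (SD, n = 8 each, log2 difference -0.52, limma adjusted p = 0.0898). Gm19705, a lincRNA, had means of 1.41 and 0.616 (-0.52, limma adjusted p = 0.0752). A230085B16Rik lies in an intron of Gpm6a on the same strand and is the second model on top of another listed row. Its means were 0.06 and 0.0138 (-0.06, limma adjusted p = 0.0747), while Gpm6a, a neuronal membrane glycoprotein, rose from 0.0488 to 0.106 (0.08, limma adjusted p = 0.0471). B430306N03Rik, also named after its values were seen, is a protein-coding model 19377 bases from Trem2, a receptor of lipid-associated macrophages. It had means of 0.787 and 0.159 (-0.47, limma adjusted p = 0.0793). By the exact permutation test it passed (adjusted p = 0.00664), as it did by the exact rank-sum test (adjusted p = 0.00792). Vehicle library 21 reached 3.6 against 0.63 in the next library, and the difference of B430306N03Rik in P without that library was -0.26 and passed (limma adjusted p = 0.00678); Trem2 had means of 1.13 and 0.516 (-0.43, limma adjusted p = 0.074).

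In experiment T the models were divided nearly evenly by direction, 55 higher and 52 lower with SXB (51.4% higher), against 91 higher and 104 lower among named genes (46.7% higher). The sign of all 107 differences was the same with 16 and with 14 libraries. With the groups as labelled, limma called none of the 107 models, on a background of 0 of 306 rows (0%), and the smallest adjusted p was 0.167. At an unadjusted p under 0.05 limma found 30 models, the exact permutation test 34 and the exact rank-sum test 33, and neither of the latter called a model after adjustment. The shares of all rows at that unadjusted limit were 29.4%, 31.7% and 30.1%, near the models' own.

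Without libraries 16 and 18, limma called 20 of the 107 models, 12 as lower and 8 as higher, on a background of 56 of 306 rows, or 18.3% (12.1% as lower and 6.21% as higher). The exact permutation test called 22, of which 17 were shared, on a background of 19.9% of rows, and the exact rank-sum test called 9, on a background of 9.8%. With all 16 libraries the difference of each of the 20 was smaller, at 43.0% to 97.9% of its size in 14 libraries, with limma adjusted p between 0.167 and 0.506. No model had groups that did not overlap, on a background of 0.98%. The 12 falls were 5 lincRNAs, 4 protein-coding models, 1 antisense RNA, 1 pseudogene and 1 other transcript; the 8 rises were 3 lincRNAs, 3 antisense RNAs and 2 protein-coding models. None of the 15 TEC loci passed.

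Libraries 16 and 18 stood on the other side of their labels for most models. Of the 20 that passed in the other libraries, library 16, labelled vehicle, was nearer to the SXB median in 13, and library 18, labelled SXB, was nearer to the vehicle median in 16. Over all 107 models the numbers were 67 and 88. With the groups of both exchanged, 33 models passed, on a background of 90 of 306 rows (29.4%). By label, the ratio of the group means of the deposited values was below the authors' limit on the fold change for some models. It was 1.54-fold for Gm32063 and 1.11-fold for Gm43305, while others reached the limit, such as Gm48199 at 3.24-fold. Whether the authors counted these libraries by label or by column when they chose the rows was not tested. If by column, the lack of calls by label and the 33 calls after the exchange are partly set by that choice. These numbers are therefore no independent check of the labels.

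Of the falls in T, 4 lincRNAs had a mean of at least 1 with vehicle. Gm10804, 5 exons on chromosome 2 opposite an intron of Cd82, was 0.8 to 4.49 in 7 vehicle libraries (median 1.85) and 0.12 to 1.32 in 7 SXB libraries (median 0.52). Its mean fell 4-fold from 2.21 ± 1.31 (SD, n = 7) to 0.551 ± 0.437 (n = 7), with a log2 difference of -0.996 (SE 0.25, limma adjusted p = 0.0295), against -0.73 (adjusted p = 0.167) with all 16 libraries. Library 16 was at 0.33 and library 18 at 1.92, each within the range of the opposite group.

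Gm32063, 7 exons on chromosome 13 near Smim13, was the most abundant lincRNA of the T models. Its vehicle libraries ran from 3.46 to 8.35 (median 5.82) and its SXB libraries from 1.79 to 5.54 (median 2.86), and library 16 was at 1.69 and library 18 at 6.1. The mean fell 1.88-fold from 6.10 ± 1.63 to 3.24 ± 1.32 (SD, n = 7 each), with a log2 difference of -0.77 (SE 0.20, limma adjusted p = 0.0339), and was -0.49 (adjusted p = 0.207) with all 16 libraries. Gm47789, a 2-exon lincRNA on chromosome 9, fell 3.11-fold from 1.63 ± 0.653 to 0.523 ± 0.426 (-0.80, limma adjusted p = 0.0263; -0.57 in 16 libraries), and Gm32885, 3 exons on chromosome 15, fell 2.60-fold from 2.02 ± 0.87 to 0.779 ± 0.485 (-0.77, limma adjusted p = 0.0371; -0.56 in 16 libraries). In library 18 Gm32885 reached 3.29, above every other library of T. The fifth lincRNA, Gm15608, was above 0 in 6 of 7 vehicle libraries and 1 of 7 SXB libraries (-0.35, limma adjusted p = 0.0371; -0.28 in 16 libraries).

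The promoters of 3 of these lincRNAs are shown because they fell together and RefSeq (GRCm38.p6) gives a start for each; 45 of the 161 models had a RefSeq promoter, 50 windows in all, from 250 bases before to 50 bases after the start. Capitals mark CCAAT on either strand (ATTGG is its reverse complement).
Gm32063, chr13:41235796-41236095, plus strand: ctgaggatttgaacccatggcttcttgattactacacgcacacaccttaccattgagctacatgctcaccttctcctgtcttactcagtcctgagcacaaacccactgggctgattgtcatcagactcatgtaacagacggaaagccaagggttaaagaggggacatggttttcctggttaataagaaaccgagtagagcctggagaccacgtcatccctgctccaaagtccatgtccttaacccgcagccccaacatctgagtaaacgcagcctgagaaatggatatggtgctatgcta
Gm10804, chr2:93452569-93452868, plus strand: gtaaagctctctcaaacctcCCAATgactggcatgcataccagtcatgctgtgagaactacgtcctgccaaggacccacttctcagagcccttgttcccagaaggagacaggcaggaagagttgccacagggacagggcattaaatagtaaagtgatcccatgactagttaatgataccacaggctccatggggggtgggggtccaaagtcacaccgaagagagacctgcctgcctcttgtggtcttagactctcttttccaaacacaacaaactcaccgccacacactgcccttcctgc
Gm32885, chr15:97167195-97167494, minus strand: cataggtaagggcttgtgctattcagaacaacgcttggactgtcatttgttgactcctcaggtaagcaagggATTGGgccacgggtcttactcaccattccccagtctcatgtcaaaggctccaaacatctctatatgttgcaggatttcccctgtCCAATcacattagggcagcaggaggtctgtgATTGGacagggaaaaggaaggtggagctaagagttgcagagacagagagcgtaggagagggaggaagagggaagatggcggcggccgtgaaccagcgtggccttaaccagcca
The motifs searched on both strands were TATAAA (the TATA box), CCAAT (the CCAAT box) and GGGCGG (the GC box), none of which overlap each other. CCAAT was found once in the Gm10804 window, 3 times in that of Gm32885 and not in that of Gm32063, and TATAAA and GGGCGG in none of them. Over the 50 windows of the models, CCAAT was in 38.0%, TATAAA in 12% and GGGCGG in 28%, against 37.4%, 13.6% and 35.7% of all 32851 windows. The median number of CG dinucleotides per window was 6 for the models and 7 for all windows.

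The protein-coding models that fell in T were 9130409I23Rik, 1700056E22Rik, C730034F03Rik and Gm5767. 9130409I23Rik, 79.8% identical over 978 bases to Degs1, a desaturase of ceramide synthesis, fell 2.11-fold from 2.30 ± 0.994 to 1.09 ± 0.557 (SD, n = 7 each; log2 difference -0.65, SE 0.20, limma adjusted p = 0.0421). C730034F03Rik lies opposite exons of Chkb, a choline kinase, and fell 2.18-fold from 0.744 to 0.341 (-0.38, limma adjusted p = 0.0341). 1700056E22Rik, opposite an intron of the phosphatase gene Dusp10, fell from 0.84 to 0.39 (-0.40, limma adjusted p = 0.0421). Gm5767 was above 0 in all 7 vehicle libraries, from 0.13 to 0.67, and in 3 of 7 SXB libraries, at most 0.16 (-0.35, limma adjusted p = 0.0263). In 16 libraries the differences were -0.48 for 9130409I23Rik, -0.30 for C730034F03Rik, -0.34 for 1700056E22Rik and -0.28 for Gm5767.

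C730002L08Rik, a long transcript opposite an intron of the retinal dehydrogenase gene Aldh1a1, fell 2.64-fold from 0.833 ± 0.304 to 0.316 ± 0.24 (SD, n = 7 each; log2 difference -0.48, limma adjusted p = 0.0354). Gm20163, antisense to exons of Exoc3l, fell from 0.227 to 0.0314 (-0.24, limma adjusted p = 0.0371), with library 18 at 0.39. Gm12321, a processed copy with 94.0% identity to Rbm7, a subunit of a nuclear RNA-exosome adaptor, fell from 0.139 to 0.0286 (-0.15, limma adjusted p = 0.0371). In 16 libraries these differences were -0.39, -0.20 and -0.11. Gm20163 and Gm12321 were named after their values were seen.

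Gm48199 had the largest rise among the models of T on the log2(value + 1) scale. It is a lincRNA of 3 exons and 496 bases on chromosome 13 (GRCm38, 52180411 to 52181637, plus strand), and its nearest protein-coding gene, Diras2, lies 322743 bases away. In 7 vehicle libraries it lay between 0.27 and 0.81 with a median of 0.56, and in 7 SXB libraries between 0.51 and 8.23 with a median of 5.98. Among the SXB libraries only library 12 lay inside the vehicle range. The mean rose 8.95-fold from 0.53 ± 0.184 (SD, n = 7) to 4.75 ± 3.07 (n = 7), with a log2 difference of 1.67 (SE 0.37, limma adjusted p = 0.0263). Library 16, labelled vehicle, was at 6.71 and library 18, labelled SXB, at 0.49, and with both included the difference was 1.17 (SE 0.47, adjusted p = 0.167).

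E030018B13Rik, a protein-coding model opposite an intron of the transcription factor gene Klf13, rose 4.34-fold from 0.574 ± 0.275 to 2.49 ± 2.27 (SD, n = 7 each; log2 difference 0.96, SE 0.30, limma adjusted p = 0.0421). SXB library 2 reached 7.16, and library 16 was at 2.13. Gm45894, antisense to exons of the chromatin regulator gene Ankrd11, was above 0 in 2 of 7 vehicle libraries, at most 0.07, and in 6 of 7 SXB libraries, up to 0.36 (0.20, limma adjusted p = 0.0381). 1500002C15Rik, antisense to exons of the phosphatase gene Ssu72, rose from 0.113 to 0.234 (0.15, limma adjusted p = 0.0468). Gm20518, a protein-coding model of 16 exons that shares exon sequence with Car15 and Dgcr2 on the same strand, rose from 0.0729 to 0.21 (0.17, limma adjusted p = 0.0409), and its reads could have been split with theirs. In 16 libraries the differences were 0.77 for E030018B13Rik, 0.19 for Gm45894, 0.11 for 1500002C15Rik and 0.14 for Gm20518.

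E230001N04Rik and 1200007C13Rik, lincRNAs of 1 and 2 exons, were at very low level. E230001N04Rik lies 5193 bases from Fkbp5, a glucocorticoid-induced co-chaperone, on the opposite strand, and rose from 0.03 ± 0.0337 to 0.121 ± 0.0471 (SD, n = 7 each; log2 difference 0.12, limma adjusted p = 0.0371). Fkbp5 had means of 3.45 and 6.82 (0.85, SE 0.33, limma adjusted p = 0.072), and did not pass. 1200007C13Rik rose from 0.0314 to 0.113 (0.11, limma adjusted p = 0.0406). Library 16 held the highest value of both lincRNAs, at 0.42 and 0.24, and with it and library 18 included the differences were 0.05 (adjusted p = 0.506) and 0.06 (adjusted p = 0.283).

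**Figure D4:**
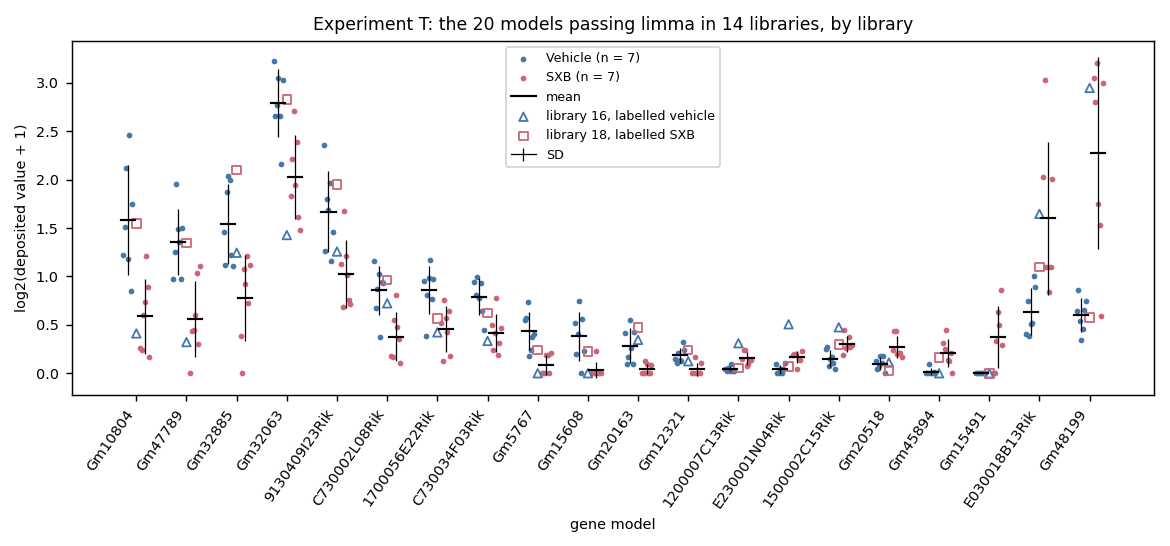
log2(deposited value + 1) of the 20 models of experiment T that passed limma without libraries 16 and 18, by library, with vehicle in blue and SXB in red (7 libraries each); bars are means and error bars SD, the open triangle is library 16 (labelled vehicle) and the open square library 18 (labelled SXB). For Gm48199 library 16 lies at a deposited value of 6.71 among the SXB libraries and library 18 at 0.49 among the vehicle libraries.

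The calls of T lay close to the threshold, and leaving out 1 library at a time ended many of them while the differences changed less. All 20 models kept their sign and an unadjusted p under 0.05 by limma with each of the 14 libraries left out, and their differences stayed between 75.2% and 119.5% of those in all 14. Without SXB library 2 limma called 0 of the 107 models, on a background of 3 of 306 rows (0.98%). At an unadjusted p under 0.05 it found 48 models, and the share of all rows at that limit was not counted for that fit. With all 14 libraries limma put 49 models and 147 of all 306 rows under that limit. Without vehicle library 10 or SXB library 12 it called 4 each, without vehicle library 4 it called 6, without vehicle libraries 8 or 11 it called 7 each, without SXB library 13 or vehicle library 15 it called 9 each and without SXB library 1 it called 10, and the background in these 8 cases was 5.23% to 10.8% of rows. Gm10804, Gm47789, Gm5767 and Gm48199 lost their call only without library 2, with an adjusted p of 0.0565 each. Over the libraries left out in turn, the difference was -1.12 to -0.85 for Gm10804, -0.89 to -0.70 for Gm47789, -0.395 to -0.30 for Gm5767 and 1.52 to 1.95 for Gm48199. The other 16 called models lost theirs with 6 to 12 of the 14 libraries left out in turn. Without libraries 1 to 4 the count was 2, and no share of all rows was counted for that fit. Libraries 1, 2 and 3 are labelled SXB and library 4 vehicle, so mostly SXB libraries were left out. With libraries 1 to 4 fitted as a further term beside treatment, the falls of Gm32885 and 1700056E22Rik lost their calls. So did the rises of 1200007C13Rik, E230001N04Rik, 1500002C15Rik, Gm20518, Gm45894 and E030018B13Rik, while the other called models kept theirs.

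Several of the most abundant models of T did not pass in either set of libraries. Gm43305, a transcript of 4901 bases on chromosome 14, had the highest mean of all models, 30.9 over 16 libraries. It ran from 3.12 to 34.37 in 7 vehicle libraries and from 4.15 to 96.66 in 7 SXB libraries, with library 16 at 132.97 (log2 difference 0.93, limma adjusted p = 0.21 without libraries 16 and 18; 0.33, adjusted p = 0.696 with them). Gm16348, near the liver-secreted fibrinogen-like gene Fgl1, had means of 1.58 and 5.80 (0.96, limma adjusted p = 0.126 in 14 libraries; 0.64, adjusted p = 0.312 in 16). Gm9830 had means of 5.11 and 2.98 (-0.74, limma adjusted p = 0.192; -0.48, adjusted p = 0.402 in 16 libraries). It is a processed copy without a single difference from Ramac, the activating subunit of the RNA cap methyltransferase, over its 357 bases, of which the first 100 are shown, so that reads within it cannot be assigned to the copy or to Ramac by sequence.
Gm9830, GRCm38 chr9:44464243-44464342, plus strand, identical to bases 160 to 259 of a Ramac transcript: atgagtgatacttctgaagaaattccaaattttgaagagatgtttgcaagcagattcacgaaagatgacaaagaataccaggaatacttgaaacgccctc

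Similar sequence elsewhere in the transcriptome was found for 15 of 57 models of P and 25 of 107 of T, and among the pseudogenes for 5 of 8 and 13 of 21. Gm13370, a copy of the ribosomal protein gene Rpl21 with 99.6% identity over 483 bases and similar sequence in 62 other genes, was at 0 in 7 vehicle libraries and in 4 of 7 SXB libraries, reached 2.69 in library 13, and was at 0.68 in library 16 (log2 difference 0.50, limma adjusted p = 0.134 in 14 libraries; 0.34, adjusted p = 0.308 in 16); it was named after its values were seen. Gm2098, on the Y chromosome, is an unprocessed copy of the ubiquitin-activating enzyme gene Uba1y with 99.6% identity. It was at 0 in all vehicle libraries and in SXB libraries 1, 2, 3 and 18, and lay between 0.59 and 0.7 in the other 4 (0.41, limma adjusted p = 0.0518 in 14 libraries; 0.36, adjusted p = 0.167 in 16).

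Models lying on or near another listed gene mostly had the same sign as that gene. In T, 11 models had a listed gene within 100000 bases, 12 pairs in all, and 10 pairs had the same sign; in P, 3 models did, and 2 of 3 pairs had the same sign. These signs were partly set by the choice of rows. In P 83.1% of all rows were lower with SXB, so equal signs are common there, while in T 51.6% were lower. C920009B18Rik was counted with both Raet1e and Raet1d, so the pairs of T are not all separate. Gm47528 lies opposite an exon of Apoa4, an apolipoprotein of triglyceride-rich particles, and had means of 0.726 and 0.283 in 14 libraries of T (log2 difference -0.31, limma adjusted p = 0.234), where Apoa4 had means of 474.5 and 247.8 (-0.83, adjusted p = 0.135). B430212C06Rik, opposite an intron of the lipid droplet gene Cidea, had means of 0.143 and 0.00857 (-0.16, limma adjusted p = 0.163), and Cidea 3.83 and 1.33 (-0.92, adjusted p = 0.185). Gm38070, in an intron of Il1r1, the interleukin-1 receptor, had means of 0.0429 and 0.177 (0.17, limma adjusted p = 0.0785), and Il1r1 4.46 and 8.69 (0.66, adjusted p = 0.109). C920009B18Rik, in an intron of Raet1e, a ligand of the NK cell receptor NKG2D, had means of 0.0957 and 0.0357 (-0.08, limma adjusted p = 0.266), and Raet1e fell from 4.99 to 1.84 (-1.02, adjusted p = 0.0295). E430024P14Rik, opposite exons of Tagap, went against it, with a difference of 0.11 (limma adjusted p = 0.123) against -0.12 (adjusted p = 0.072). The other pair of opposite sign in T was C730034F03Rik, which fell, and Klhdc7b, 40722 bases away on the same strand (0.14, adjusted p = 0.106). The differences of several of these models moved with 1 vehicle library, to -0.0997 for Gm47528 without library 11, to -0.0734 for B430212C06Rik without library 10 and to -0.0256 for C920009B18Rik without library 4, each with its sign kept. In 16 libraries they were -0.23, -0.13 and -0.03, with 0.15 for Gm38070 and 0.09 for E430024P14Rik, and none passed. Whether the counting used strand was not stated, so reads of an antisense or intronic model and of its host cannot be told apart.

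The 3 models listed in both tables were compared through the interaction of treatment and experiment. Gm15491 lies opposite exons of Mgea5, the enzyme that removes O-GlcNAc from proteins, and of Npm3, a nucleolar histone chaperone. It was listed at 0 in all 8 vehicle libraries of P and all 8 of T. With SXB it was above 0 in 4 of 8 libraries of P, up to 0.52, and in 5 of 8 libraries of T, up to 0.82. Its log2 differences were 0.20 in P (SE 0.08, limma adjusted p = 0.0581), 0.33 in T (SE 0.11, adjusted p = 0.167) and 0.37 in T without libraries 16 and 18 (SE 0.12, adjusted p = 0.0424); no fold is given against a group listed at 0.

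Gm47528 had a difference of -0.29 in P (limma adjusted p = 0.0967), where vehicle libraries 33, 34 and 35 held 0.9 to 1.15 and the others at most 0.22, and without these 3 libraries it was 0.01. 4930458D05Rik, antisense to exons of Gpat3, an acyltransferase of triglyceride synthesis, had -0.08 in P (limma adjusted p = 0.27), with vehicle library 34 at 0.5, and -0.11 in 14 libraries of T (adjusted p = 0.133; -0.09 and 0.239 in 16). Without vehicle libraries 33, 34 and 35 its difference in P was 0.0018. None of the 3 interactions passed over the 15 shared rows, with T minus P differences of 0.17 for Gm15491, -0.02 for Gm47528 and -0.03 for 4930458D05Rik in 14 libraries of T (limma adjusted p = 0.361, 0.941 and 0.884) and of 0.12, 0.06 and -0.01 in all 16 (adjusted p = 0.574, 0.914 and 0.927); a p that misses the threshold does not show that the experiments were alike.

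**Figure D5:**
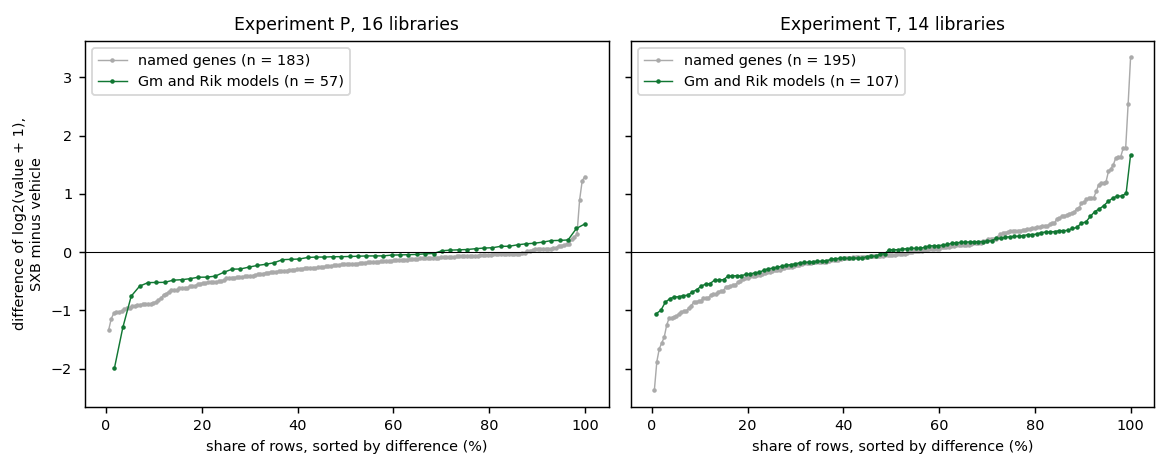
Differences of log2(deposited value + 1), SXB minus vehicle, of the Gm and Rik models (green) and named genes (grey) of each experiment, each sorted and drawn against the share of rows in percent; P with 16 libraries and T without libraries 16 and 18. The green line of P crosses 0 further left than the grey one, with 31.6% of models and 12.6% of named genes higher, while both lines of T cross near the middle (51.4% and 46.7% higher).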

How the data were processed

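Per the labels' protocols, TRIzol was used to isolate liver RNA, and the Illumina reads were paired, each 150 bases long. RSEM, StringTie, HISAT2, fastp, DESeq2 and the build GRCm38 are named, with no roles, in the notes that the submitters gave. The library columns hold the authors' deposited expression signal; TPM and FPKM could not be told apart. The authors deposited, beside them, a fold change as a ratio, its log2 fold change and a p-value and adjusted p-value, under headers shifted by 1 column; per the file headers and values these served only to state how rows were chosen, and no value of theirs is printed. No counts are given, so no interval from counts was computed.

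Members, lists, tests and alternatives were chosen with earlier results of these data known. Differences were tested with limma 3.58.1 (R 4.3.3) on log2(value + 1), two-sided, with Benjamini-Hochberg adjustment over all rows of a table and a threshold of 0.05, and with exact permutation tests over all 12870 assignments of 16 libraries or 3432 of 14 (Python 3.11.15, scipy 1.17.1). The scripts were tested on simulated data. No 2 libraries were identical. Models were named by rule: in P, and in T without libraries 16 and 18, up to 10 falls and 10 rises passing limma with the largest difference; the 5 highest by mean; those in both tables; those overlapping another listed gene; and those at 0 in all libraries of a group. Others are marked as named after their values were seen. Gene types, positions and overlaps came from GENCODE M21, similar sequence from blastn 2.17.0 of each model's longest transcript against all transcripts, and promoters from RefSeq. Alternatives were other pseudocounts, filters, tests and thresholds, each library left out, and libraries 16 and 18 exchanged. In addition, libraries 33 to 35 of P or 1 to 4 of T were left out. Libraries 1 to 4 of T were also fitted as a term.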

Additional observations from a re-analysis of the deposited data

Results flagged for a closer look

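Of the 110 groups of libraries behind the models named above, 30 held a highest or lowest library that stood apart from the next by more than Dixon's 95% critical value; chance alone flags about 1 group in 20 of normally spread values, and groups in which most libraries are at 0 are flagged more easily.

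Library 16 of T, labelled vehicle, was the highest vehicle library in 7 of these groups. It held 6.71 for Gm48199, against 0.81 in the next library, 132.97 for Gm43305 (next 34.37), 6.68 for Gm16348 (next 2.48), 2.13 for E030018B13Rik (next 1), 0.42 for E230001N04Rik (next 0.08), 0.24 for 1200007C13Rik (next 0.07) and 0.68 for Gm13370 (next 0). Library 18, labelled SXB, was the highest SXB library for Gm32885 at 3.29 (next 1.32), for Gm20163 at 0.39 (next 0.09) and for B430212C06Rik at 0.15 (next 0.06).

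Other SXB libraries of T stood apart for E030018B13Rik, where library 2 held 7.16 (next 3.07), for Gm16348, where library 3 held 18.82 (next 7.78), and for Gm13370, where library 13 held 2.69 (next 1.21). Among vehicle libraries of T, library 11 held 2.76 for Gm47528 (next 0.84), library 4 held 0.35 for C920009B18Rik (next 0.1) and 0.24 for E430024P14Rik (next 0.08), library 10 held 0.61 for B430212C06Rik (next 0.27), and library 8 held 0.07 for Gm45894 (next 0.01).

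In P, vehicle library 21 held 3.6 for B430306N03Rik (next 0.63) and vehicle library 34 held 0.5 for 4930458D05Rik (next 0.09) and 0.23 for 6030442K20Rik (next 0.13). Vehicle library 36 held 0.36 for Gm9762 (next 0.07) and 0.2 for Gm47218 (next 0.09), and vehicle library 31 held 0.47 for Gm45344 (next 0.2). Among SXB libraries of P, library 30 held the only value above 0 for Gm7666, 0.32. Library 28 held 1.09 for Gm13203 (next 0.68), library 19 held 0.16 for Gm48372 (next 0.08), library 25 held 0.24 for 9330161L09Rik (next 0.12) and library 20 held 0.08 for A230085B16Rik (next 0.03). Library 23 was the lowest for 5430430B14Rik, at 0.07 against 0.13 in the next.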

How the results depend on the processing

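The count of models passing in P, 18, was 29 with a pseudocount of 0.01, 2 of the 4 models with a mean of at least 1, 2 at a threshold of 0.01, 6 without vehicle libraries 33, 34 and 35, and 9 to 20 with each library left out. In T with the groups as labelled the count of 0 became 1 with a pseudocount of 0.01 and 33 when libraries 16 and 18 traded groups, and was 0 with each library left out. Without libraries 16 and 18 the count of 20 was 37 and 40 with pseudocounts of 0.1 and 0.01. It was 9 of the 22 models with a mean of at least 1, and 0 at a threshold of 0.01. At an unadjusted p under 0.05 limma found 49 models and 147 of all 306 rows. The count was 2 without libraries 1 to 4, 9 with the exact rank-sum test, and 0 to 27 with each library left out. Of all rows, 28.1% to 41.7% passed in P with each library left out, and 22.3% without vehicle libraries 33, 34 and 35. In T without libraries 16 and 18, 0.98% to 24.8% of all rows passed with each library left out. For the pseudocounts, the mean filter, the threshold of 0.01 and libraries 1 to 4, no share of all rows was counted. Whether those counts moved with all rows is therefore not shown. The number of models higher with SXB in P, 18 of 57, was 0 of the 4 with a mean of at least 1, which are few. Of 1229 differences of named models under alternatives, 903 kept their sign and side of the threshold, 298 no longer passed, 26 newly passed and 2 changed sign. That of Gm47528 in P became 0.0138 and that of 4930458D05Rik 0.0018 without vehicle libraries 33, 34 and 35, and the T minus P difference of Gm47528 became -0.0203 without libraries 16 and 18. For the other changes the cause was not tested. No paired analysis was possible because library numbers are not shared between the groups. With depth unknown and values rounded to 0.01, differences of models near 0 rest on few distinct values.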
